A study of Homo sapiens with 5 samples.

Results

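Respiratory complex I, the first enzyme of the mitochondrial electron transport chain, was followed through its subunits encoded in the nucleus. The members were all genes of the authors' table whose symbol is NDUFA, NDUFB, NDUFC, NDUFS, NDUFV or NDUFAB and a number. There were 38 of them among 27477 genes, and 37 had an adjusted p. The RNA came from PC9, an established human lung adenocarcinoma line that carries an activating EGFR mutation and depends on EGFR signalling. The drug-tolerant cells (DTC, 2 libraries) had been kept for 6 days with gefitinib at 50 nM, which blocks the EGFR kinase, and for a further 3 days in growth medium, and the parental cells (3 libraries) were the same line without the drug-tolerant label. The text on treatment stands with the labels of both groups, and no label says whether replicates came from separate cultures, so a p-value speaks only of how far these libraries spread, and that spread may be technical. Poly(A) RNA was sequenced with a stranded mRNA kit.

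Complex I takes electrons from NADH, passes them along a chain of iron-sulfur clusters to ubiquinone and pumps protons across the inner mitochondrial membrane. Its peripheral arm holds the N module, which oxidises NADH, and the Q module, which reduces ubiquinone. The membrane arm has a proximal and a distal part that carry the proton channels. The catalytic core is made partly of nuclear subunits and partly of subunits encoded in mitochondrial DNA, and accessory subunits surround and stabilise it.

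The authors' table gives 1 mean level per gene, a log2 fold change and its standard error, with no value per library. Whole reads in each library were recovered from these numbers for all 38 members and for 13917 of the 15223 genes with an adjusted p. A value per library below is the recovered reads divided by the size factor of that library (normalised reads). The recovered libraries could not be matched to replicate numbers and are called drug-tolerant a and b and parental a, b and c, by falling size factor within each group. Depth was about 20.4 and 14.2 M counted reads in drug-tolerant a and b, and 21.4, 18.3 and 17.3 M in parental a, b and c.

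One parental library stood apart from the other two. Across 13917 genes the median absolute log2 difference was 0.11 between drug-tolerant a and b and 0.10 between parental b and c, but 0.60 between parental a and b and 0.64 between parental a and c. Parental a lay nearer to the drug-tolerant libraries, with a median absolute difference of 0.21 from drug-tolerant a and 0.23 from drug-tolerant b. The comparison is therefore given with all 5 libraries and, for genes resolved into reads, without parental a. Parental a was singled out on these same values, and without it each group is left with libraries that lie close together. A p-value without parental a is therefore no separate evidence of a difference between drug-tolerant and parental cells. The mean levels of 7 epithelial markers ran from 78.2 for MUC1 to 35758 for KRT8, and 0 of them were called. Of the markers of other cell types, 3 endothelial genes summed to 2485 and 2238 normalised reads in drug-tolerant a and b, against 1894, 1352 and 1407 in parental a, b and c. PECAM1 (mean level 1616, log2 fold change 0.57) and CDH5 (mean level 253, log2 fold change 0.36) were both above every parental library in both drug-tolerant libraries, and neither was called. VWF, the other endothelial gene of the sum, had a mean level of 6.61 and overlapped between the groups. The part of these markers in the results was not tested. Of 5 fibroblast markers only COL1A1 was in the authors' table, with a mean level of 162, and it overlapped between the groups. Of 5 haematopoietic markers 3 were in it, and of 2 erythroid markers 0. ITGAM, a haematopoietic marker with a mean level of 25.9, had 57.1, 18.7 and 13.5 normalised reads in parental a, b and c. Drug-tolerant a and b had 26.5 and 13.9.

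In the members the libraries fell into the same pattern, with parental b and c high and the other libraries low. Summed over all 38 members, normalised reads were 28684 and 29016 in drug-tolerant a and b, against 24898, 53307 and 54103 in parental a, b and c. The sum in each drug-tolerant library was thus above parental a and far below parental b and c. Parental a was below both parental b and c in 35 of 37 members, against 47.5% of all resolved genes. It was also below both drug-tolerant libraries in 29 of 37 members, against 44.6% of all resolved genes. In bulk RNA, fewer cells that express these genes and less of their RNA per cell cannot be told apart.

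**Figure D1:**
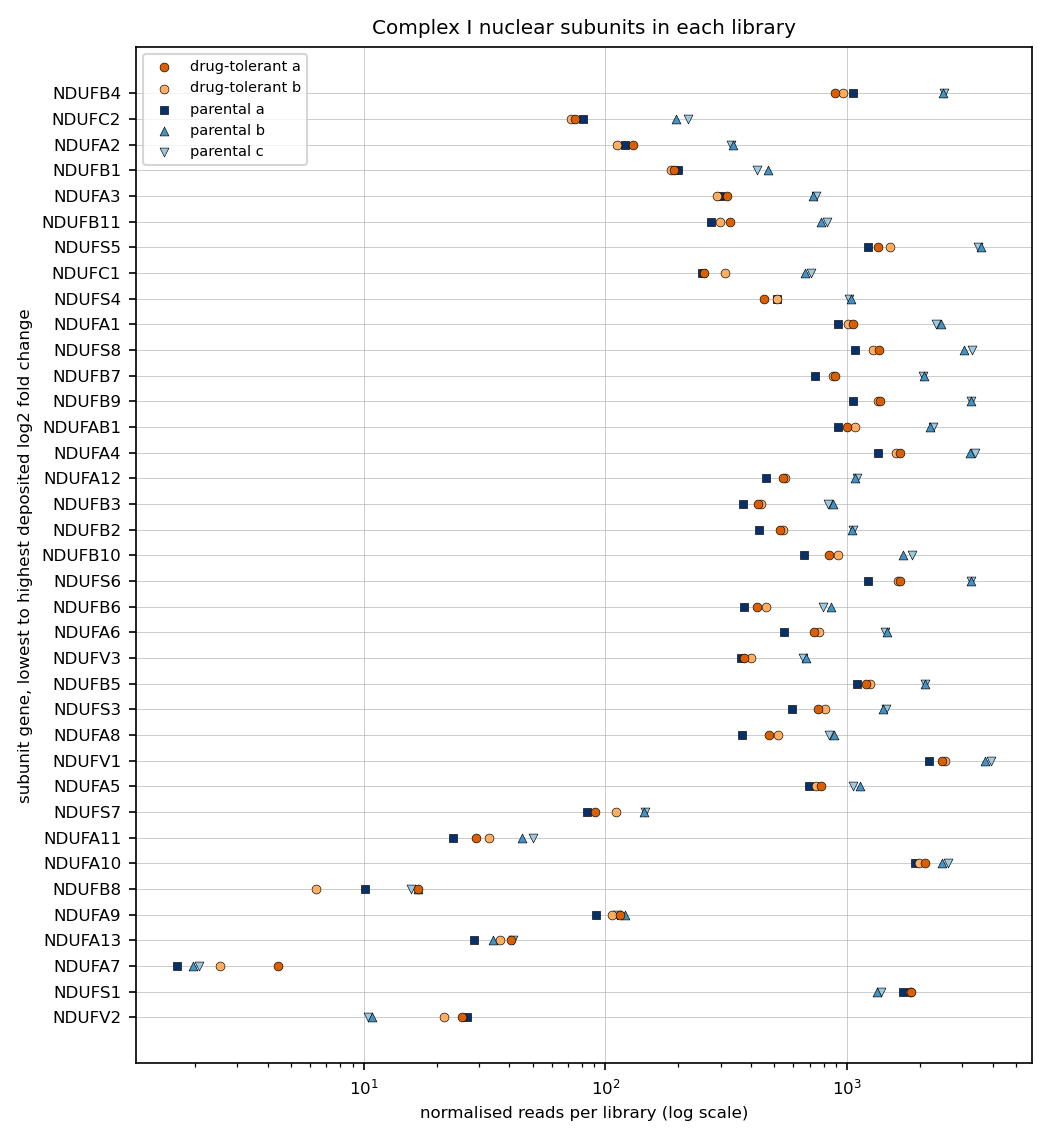
Normalised reads (log scale) of 37 of the 38 subunit genes in each of 5 libraries, 1 row per gene, ordered by the deposited log2 fold change. Circles are drug-tolerant libraries and squares and triangles are parental libraries. In most rows parental b and c lie together on the right, while parental a lies with or to the left of both drug-tolerant libraries.

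No member was called by the authors' adjusted p under 0.05 (DESeq2), in either direction. Over all 15223 genes 0.289% were called lower and 0.263% higher. At an unadjusted p under 0.05, 7 members were lower and 0 higher in drug-tolerant cells, against 7.1% and 3.7% of all 15223 genes. The limma test on the recovered reads of all 5 libraries, an alternative added after the data were seen, also called 0 members and 0 of 13917 genes (0.0% in each direction), with no member and 1537 genes at an unadjusted p under 0.05. The deposited log2 fold change was below 0 in 33 of 37 members, against 51.6% of all genes with an adjusted p. Its median was -0.51 in the members and -0.02 in all genes with an adjusted p, and the median standard error of the members was 0.34.

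Which parental library was compared set the sign of most members. The median log2 ratio of the drug-tolerant mean to parental a was 0.22, and 5 of 37 members were below 0. The median ratio to parental b was -0.97, with 34 of 37 members below 0, and that to parental c was -0.98, with 35 of 37 below 0. Over all resolved genes the corresponding medians were 0.03, -0.02 and -0.02. Both drug-tolerant libraries lay below every parental library in 3 of 37 members (NDUFB4, NDUFC2 and NDUFB1), against 16.5% of all resolved genes. Both lay above every parental library in 1 of 37 (NDUFS1), against 19.4%. Without parental a these counts were 32 of 37 below, against 43.7% of genes, and 2 of 37 above, against 41.9%.

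**Figure D2:**
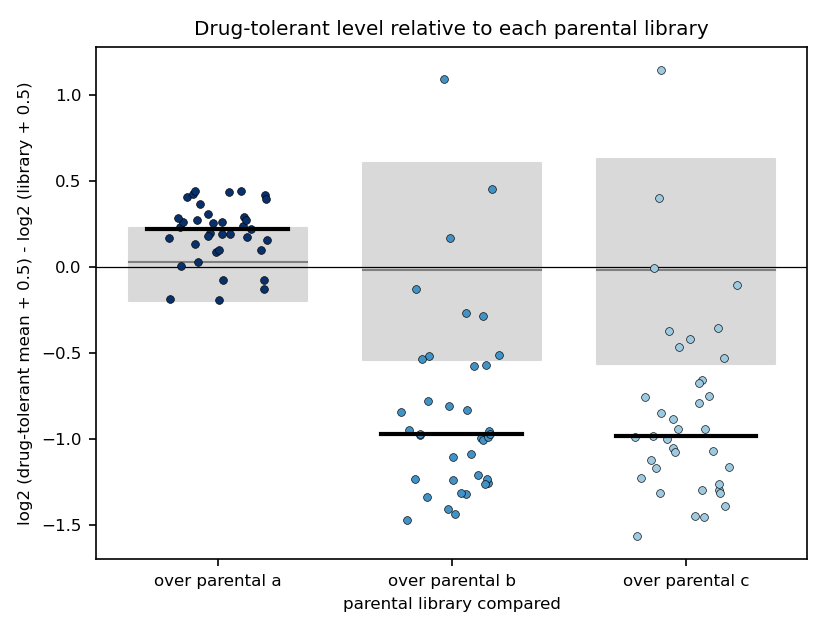
Log2 ratio of the drug-tolerant mean to parental a, b and c (pseudocount 0.5) for the 37 members with an adjusted p. Points are members and black lines their medians (0.22, -0.97 and -0.98). Grey boxes are the quartiles and grey lines the medians of all 13917 resolved genes.

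With parental a left out, limma called 32 of 37 members lower and 2 higher, with a median log2 fold change of -0.98 (Benjamini-Hochberg adjusted p under 0.05 over all resolved genes). The same fit called 36.2% of all resolved genes lower and 35.5% higher, so that most genes passed the test once parental a was gone. With parental b, parental c or either drug-tolerant library left out instead, limma called 0 members. The 3 members that the fit without parental a called in neither direction were NDUFA9, NDUFA13 and NDUFB8. It called 7 of 9 tested members lower and 2 higher in the N module, 5 of 6 lower in the Q module, 8 of 9 lower in the proximal membrane arm and 10 of 11 lower in the distal membrane arm.

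In the N module, NDUFV1, the core subunit that binds NADH and its flavin, had 2463 and 2538 normalised reads in drug-tolerant a and b, against 2189, 3729 and 3950 in parental a, b and c. The drug-tolerant values were above parental a and under parental b and c, and the deposited log2 fold change was -0.33 ± 0.30 (SE; DESeq2 adjusted p = 0.594). NDUFS1, the largest iron-sulfur subunit of the core (chromosome 2, 206114817 to 206159603, GRCh38), had another order of libraries. It had 1834 and 1815 normalised reads in drug-tolerant a and b, against 1707, 1336 and 1383 in parental a, b and c. Both drug-tolerant libraries were above all parental libraries, yet the deposited log2 fold change was 0.28 with a 95% interval of -0.18 to 0.74 and an adjusted p of 0.573 (DESeq2). NDUFV2, a core subunit with an iron-sulfur cluster, was counted at only 25.6 and 21.6 normalised reads in drug-tolerant a and b, against 26.9, 10.8 and 10.4 in parental a, b and c. Its log2 fold change of 0.31 ± 0.41 was within its error.

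The accessory subunits of the N module had fold changes below 0 where they had an adjusted p. NDUFA2, a small subunit with a thioredoxin-like fold, had 131 and 112 normalised reads in drug-tolerant a and b, against 121, 337 and 332 in parental a, b and c. Parental a lay between the drug-tolerant libraries, while parental b and c were far above them. The deposited log2 fold change was -0.80, with a 95% interval of -1.52 to -0.08 and an adjusted p of 0.442 (DESeq2). NDUFS4, which helps to hold the N module on the rest of the enzyme and is a known gene of Leigh syndrome, had 455 and 512 normalised reads in drug-tolerant a and b, against 510, 1041 and 1015 in parental a, b and c. Here too parental a fell within the drug-tolerant range. Over the 9 members of this module with an adjusted p the median log2 fold change was -0.47, and 7 were below 0. NDUFA7 had no adjusted p, with a mean level of 2.53 and 2 to 5 reads in each library.

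Of the 6 members of the Q module 5 were below 0, and the median log2 fold change was -0.27. NDUFS8, which carries iron-sulfur clusters of the electron path, had 1351 and 1282 normalised reads in drug-tolerant a and b, against 1078, 3047 and 3277 in parental a, b and c. The drug-tolerant mean was 1.22 times parental a, 0.432 times parental b and 0.402 times parental c, and the deposited log2 fold change was -0.66 ± 0.36 (adjusted p = 0.484, DESeq2). NDUFS3 and NDUFS7, also core members of the module, had log2 fold changes of -0.42 ± 0.34 and -0.25 ± 0.33. NDUFA9, an accessory subunit related to dehydrogenases, had 115 and 106 normalised reads in drug-tolerant a and b, against 91.5, 121 and 111 in parental a, b and c, so that its groups overlapped closely.

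In the proximal membrane arm 8 of 9 members were below 0, with a median log2 fold change of -0.66. NDUFC2 had 75.0 and 72.3 normalised reads in drug-tolerant a and b, against 80.6, 197 and 219 in parental a, b and c. Both drug-tolerant libraries were lower than every parental library, by little from parental a. The deposited log2 fold change was -0.84 ± 0.37 (adjusted p = 0.428, DESeq2), and 17.1% of the exonic bases of its principal transcript are shared with the read-through gene NDUFC2-KCTD14. NDUFA3, NDUFS5 and NDUFC1 followed with log2 fold changes of -0.73, -0.70 and -0.68. NDUFS5 was the member with the highest mean level per kilobase of transcript, at 4073 normalised reads per kb. NDUFA10, related to nucleoside kinases, had 2109 and 1989 normalised reads in drug-tolerant a and b, against 1913, 2465 and 2618 in parental a, b and c. Both drug-tolerant libraries lay above parental a and below parental b and c. The deposited log2 fold change of NDUFA10 was -0.17 (adjusted p = 0.739, DESeq2).

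All 11 members of the distal membrane arm were below 0, with a median log2 fold change of -0.52. NDUFB4 (chromosome 3, 120596309 to 120602500, GRCh38) had the lowest fold change of all members. It had 887 and 961 normalised reads in drug-tolerant a and b, against 1056, 2503 and 2519 in parental a, b and c. The drug-tolerant mean of 924 ± 52.2 (SD, n = 2) was below every parental library, but the parental mean was 2026 ± 840 (SD, n = 3), and the drug-tolerant mean was 0.875 times parental a and 0.369 times parental b. The deposited log2 fold change was -0.88, with a 95% interval of -1.54 to -0.21 and an adjusted p of 0.350 (DESeq2), the lowest adjusted p of any member. Without parental a, singled out on these same values, the limma log2 fold change was -1.44 ± 0.06 (SE). Its limma adjusted p was 3.09e-13. In NDUFB1 both drug-tolerant libraries were likewise below every parental library, with 191 and 186 normalised reads in drug-tolerant a and b, against 199, 472 and 424 in parental a, b and c. NDUFB11 had a log2 fold change of -0.72 ± 0.37.

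**Figure D3:**
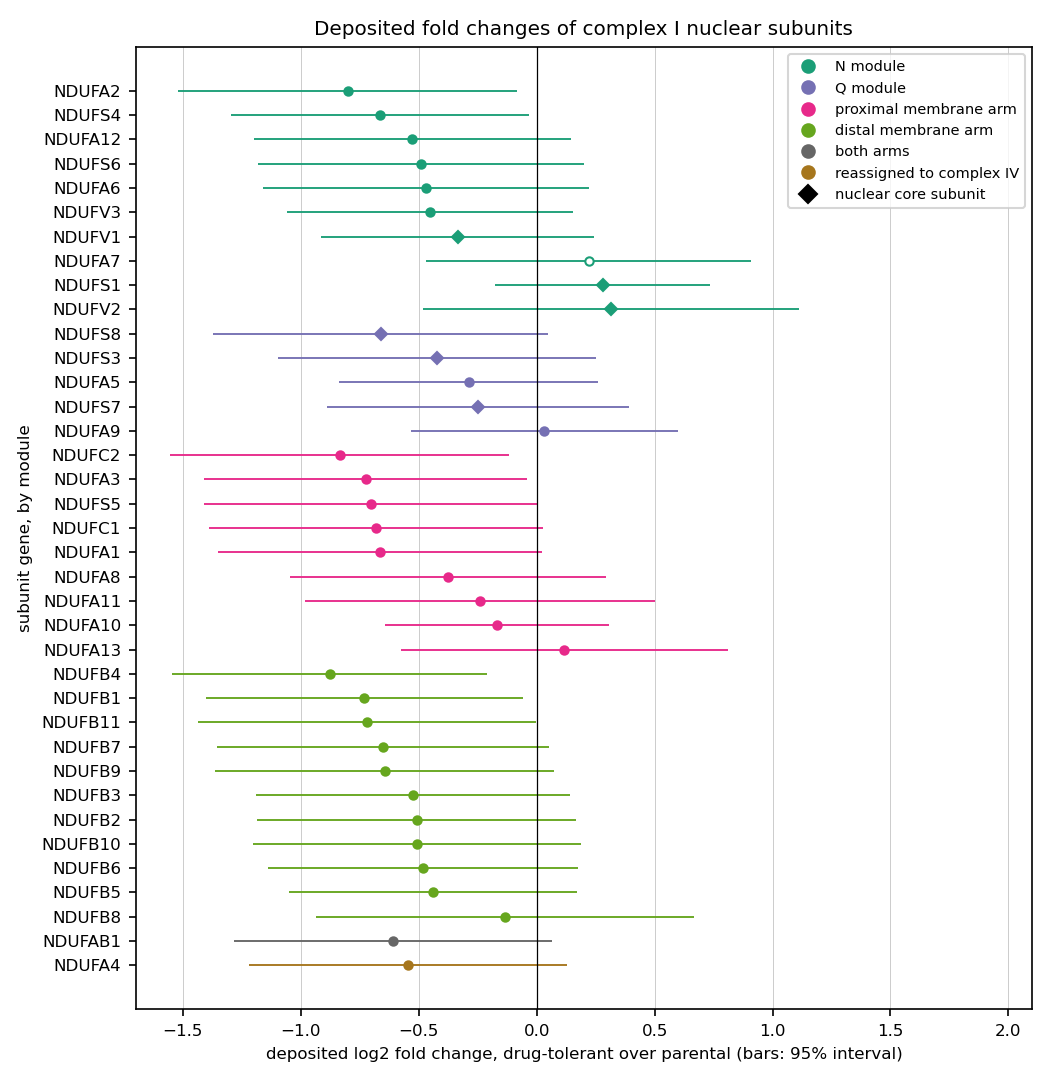
Deposited log2 fold change, drug-tolerant over parental, of 37 of the 38 members with its 95% interval, by module. Diamonds are nuclear core subunits, and the open circle is NDUFA7, which has no adjusted p. All 11 distal membrane arm members lie below 0, while 4 members with an adjusted p (NDUFA9, NDUFA13, NDUFS1 and NDUFV2) lie above it.

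In the 2 members outside these modules both drug-tolerant libraries lay between parental a and parental b and c. NDUFAB1, the mitochondrial acyl carrier protein, which sits in both arms and also serves fatty acid and iron-sulfur cluster synthesis, had 1003 and 1075 normalised reads in drug-tolerant a and b, against 920.0, 2210.3 and 2261 in parental a, b and c. NDUFA4, since assigned to complex IV, had 1660 and 1590 normalised reads in drug-tolerant a and b, against 1347, 3239 and 3375 in parental a, b and c. The deposited log2 fold changes were -0.61 for NDUFAB1 and -0.55 for NDUFA4 (adjusted p = 0.490 and 0.510, DESeq2). Among the 7 nuclear core subunits the median log2 fold change was -0.25, with 5 below 0, and among the 30 accessory subunits with an adjusted p it was -0.53, with 28 below 0. The difference between core and accessory subunits was not tested.

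The members with the lowest levels share exons with other genes. NDUFA7, NDUFB8, NDUFV2, NDUFA11 and NDUFA13 had mean levels of 4.22 to 44.1 normalised reads per kb of transcript, against 24.2 in NDUFA9 and 111 or more in every other member. In GENCODE 29 (GRCh38) another annotated gene on the same strand covers 44.1% to 82.9% of the exonic bases of their principal transcripts, and 17.1% or less in the other members. How reads on shared exons were counted is not given in the sources used here, so the levels of these 5 genes are uncertain. Among them are 2 (NDUFV2 and NDUFA13) of the 4 members that had an adjusted p and a log2 fold change above 0.

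Members with longer transcripts had fold changes nearer to 0 or above it, as did genes at large. Transcript length was taken as the median of the basic protein-coding transcripts in GENCODE. The median over the 37 members was 785 bases, against 2564.5 in 12449 protein-coding genes with an adjusted p. Across the members, log2 length and log2 fold change had a Pearson r of 0.56 and a Spearman rho of 0.63 (37 genes that share the same 5 libraries), against 0.54 and 0.55 across the 12449 genes. Under 1000 bases, the median log2 fold change was -0.63 in 24 members, against -0.51 in all 1023 genes of that length. From 1000 to 2000 bases the medians were -0.33 in 7 members and -0.26 in 3280 genes. From 2000 to 4000 bases they were -0.24 in 5 members and 0.02 in 5110 genes. The median log2 ratio of parental a to parental b in genes under 1000 bases was -1.27 in the members and -0.99 in all resolved genes. From 1000 to 2000 bases it was -0.78 in the members and -0.51 in all resolved genes. From 2000 to 4000 bases it was -0.89 in the members and 0.01 in all resolved genes, and above 4000 bases it was -0.40 in the single member (NDUFA9) and 0.66 in all resolved genes. In each of these length classes the members' median ratio of parental a to parental b was lower than that of all resolved genes. NDUFS1 (2394 bases) went the other way, with 1707 normalised reads in parental a, against 1336 and 1383 in parental b and c. With the trend on transcript length and GC content removed, the median of the members was -0.11, against -0.51 as deposited, and 29 of 37 members were below 0, against 33 as deposited. The part of transcript length in the gap between parental a and parental b and c was not tested.

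**Figure D4:**
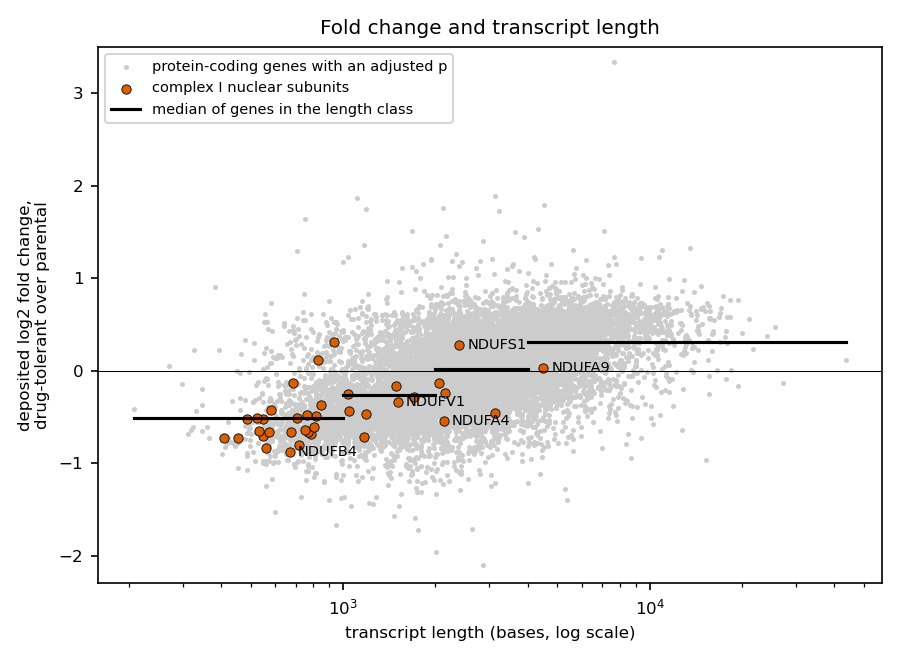
Deposited log2 fold change, drug-tolerant over parental, against transcript length (log scale) for 12449 protein-coding genes with an adjusted p (grey) and 37 members (orange). Black lines are the medians of all genes in 4 length classes, from -0.51 under 1000 bases to 0.31 above 4000 bases. The members crowd at the short end. Their own median is below that of all genes in each class, but some members, among them NDUFV2, NDUFA13, NDUFB8 and NDUFS1, lie above it.

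Promoters were examined as a planned description, and no link between motifs and levels was tested. Sequences of 250 bases before and 50 after the start were found for 32 of 38 members in a RefSeq table (GRCh38.p14). Each motif was searched on both strands. GCGCATGCG, a site form of the regulator NRF1, was in 5 of 32 members (15.6%) and in 2.34% of 27305 genes, and its core GCATGCG, which overlaps it, was in 18.8% and 4.74%. AAGATGGCG, a site form of YY1, was in 18.8% of the members and 2.14% of genes. CCGGAAG, a site form of ETS factors such as GABPA, was in 15.6% and 12.2%, and CCAAT, the NF-Y box, was in 25.0% and 39.7%. The 27305 genes are more than the 15223 with an adjusted p, so they include genes with few reads, unlike most members. The shares over genes with an adjusted p were not taken. A match is no more than these letters in this window.

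NDUFB4 had the lowest fold change, and NDUFS6 and NDUFS8 were both low in parental a. In NDUFS1 both drug-tolerant libraries lay above every parental library. None of these members was called. Below are the bases before their start, outside the annotated gene, with motif matches in capitals. They lie at chr3:120596086-120596308 (plus strand), chr5:1801157-1801399 (plus), chr11:68030431-68030616 (plus) and chr2:206159604-206159694 (minus). NDUFB4 and NDUFS6 hold the NRF1 form, and NDUFS8 holds 3 NF-Y boxes on either strand. The NDUFS1 stretch of 91 bases holds none of the motifs, since the CCGGAAG match of its window lies outside it. The NRF1 form was also in the windows of NDUFA5, NDUFA8 and NDUFS7, with log2 fold changes of -0.29, -0.38 and -0.25. Whether a motif goes with the direction of change was not tested.
NDUFB4: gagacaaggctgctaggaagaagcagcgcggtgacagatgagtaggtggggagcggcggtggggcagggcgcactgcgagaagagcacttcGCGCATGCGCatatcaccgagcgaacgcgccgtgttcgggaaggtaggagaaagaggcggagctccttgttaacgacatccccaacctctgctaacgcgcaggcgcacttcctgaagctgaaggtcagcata
NDUFS6: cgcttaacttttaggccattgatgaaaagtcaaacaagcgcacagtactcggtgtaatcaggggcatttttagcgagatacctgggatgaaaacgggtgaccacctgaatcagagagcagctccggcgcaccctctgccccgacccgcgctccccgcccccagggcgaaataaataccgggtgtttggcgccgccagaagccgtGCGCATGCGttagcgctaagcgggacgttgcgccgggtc
NDUFS8: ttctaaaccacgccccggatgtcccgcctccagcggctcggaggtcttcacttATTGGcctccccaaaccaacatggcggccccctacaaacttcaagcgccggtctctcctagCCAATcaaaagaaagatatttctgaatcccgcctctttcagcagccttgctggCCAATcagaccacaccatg
NDUFS1: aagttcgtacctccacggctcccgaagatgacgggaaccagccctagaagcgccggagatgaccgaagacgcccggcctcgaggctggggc

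The other genes of complex I were likewise not called. The 7 subunits encoded in mitochondrial DNA were all below 0, and their median log2 fold change in the authors' deposited table was -0.44. MT-ND1 was at -0.61 ± 0.35, MT-ND2 at -0.59 ± 0.33, and MT-ND6 at -0.55 ± 0.30, while MT-ND3, MT-ND5 and MT-ND4L were at -0.37, -0.15 and -0.14. Their mean levels, from 22044 to 283556, were too high for the recovery of reads, so no value per library is given. Among 17 assembly factors, which build the complex and are not part of it, 0 were called and 15 were below 0, with a median of -0.26. NDUFAF2, a chaperone of late assembly, had 457 and 456 normalised reads in drug-tolerant a and b, against 386, 1025 and 956 in parental a, b and c. NDUFAF6 and NDUFAF8 had log2 fold changes of -0.59 and -0.52. ACAD9, NDUFAF1 and NDUFAF7 were near 0, at -0.04, 0.04 and 0.07. Both drug-tolerant libraries were below every parental library in 0 of 16 assembly factors resolved into reads, against 16.5% of all resolved genes, and below parental b and c in 12, against 43.7%. Without parental a, limma called 12 of the 16 lower and 0 higher, against 36.2% and 35.5% of all resolved genes, and NDUFAF2 was at -1.12 on the log2 scale (adjusted p = 1.4e-10). With the trend on length and GC content removed, the median of the assembly factors was 0.0024.

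Of 11 regulators of mitochondrial gene expression with an adjusted p, 0 were called, 3 were below 0, and the median log2 fold change was 0.09. PPARGC1B, a coactivator of mitochondrial genes, had 237 and 297 normalised reads in drug-tolerant a and b, against 228, 50.1 and 46.8 in parental a, b and c. Parental a was close to the drug-tolerant libraries, and parental b and c were far below them. PPRC1, a related coactivator, had 1020 and 1038 normalised reads in drug-tolerant a and b, against 902, 631 and 616 in parental a, b and c (log2 fold change 0.46, adjusted p = 0.493, DESeq2). POLRMT, the mitochondrial RNA polymerase, had 660 and 737 normalised reads in drug-tolerant a and b, against 497, 451 and 514 in parental a, b and c. In POLRMT parental a lay among the parental libraries, and the deposited log2 fold change was 0.47 with a 95% interval of 0.03 to 0.92 and an adjusted p of 0.453 (DESeq2). TFB1M, GABPB1 and ESRRA were below 0, at -0.36, -0.13 and -0.10. Without parental a, limma called 3 of 10 resolved regulators lower (TFB1M, GABPB1 and ESRRA) and 5 higher, against 36.2% and 35.5% of all resolved genes. With all 5 libraries the deposited log2 fold change of PPARGC1B was 0.75 (DESeq2 adjusted p = 0.474). Without parental a, which was singled out on these same values, limma put PPARGC1B at 2.44 on the log2 scale (adjusted p = 7.3e-11). PPRC1 was at 0.72 (1.9e-08) and POLRMT at 0.53 (1.9e-05) in that fit. Most genes passed that test, so these p-values are no separate evidence of a difference. The supercomplex factors COX7A2L, HIGD2A and HIGD1A had log2 fold changes of -0.70, -0.56 and -0.38, and in each of them both drug-tolerant libraries were below parental b and c but not below parental a. Without parental a, limma called all 3 of them lower. NDUFA4L2, a paralog of NDUFA4 known to respond to hypoxia, had too few reads for an adjusted p.

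**Figure D5:**
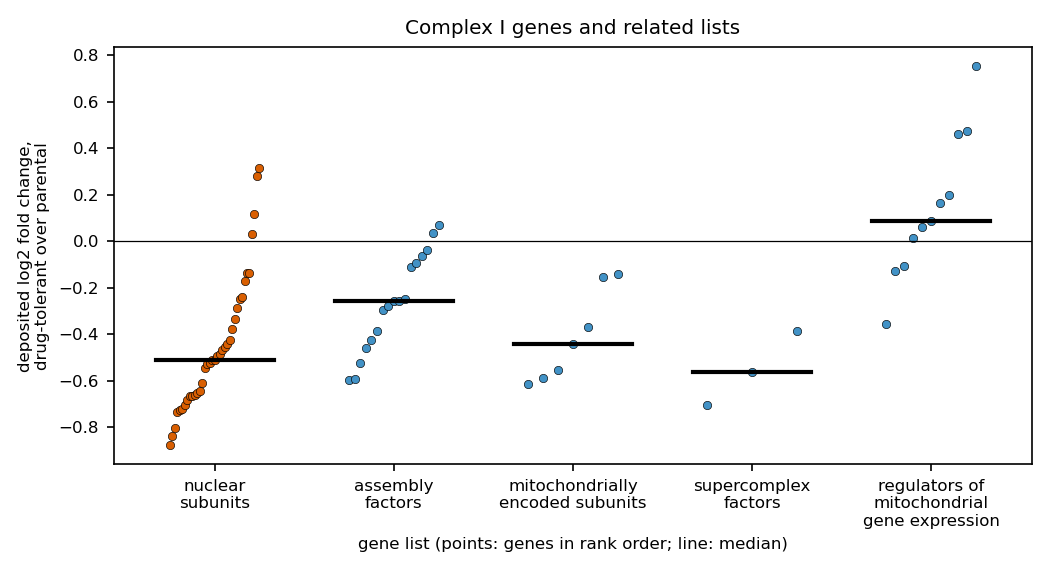
Deposited log2 fold change, drug-tolerant over parental, of genes with an adjusted p in the nuclear subunits (orange) and 4 related lists (blue), each in rank order with its median as a line. Medians are -0.51 in nuclear subunits, -0.26 in assembly factors, -0.44 in mitochondrially encoded subunits, -0.56 in supercomplex factors and 0.09 in regulators of mitochondrial gene expression.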

How the data were processed

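FastQC, STAR and DESeq2 are named in the submitters' processing notes, with hg38 as the build. Not given in the sources used here are their versions and settings, how reads were assigned to genes and with which gene models. The authors deposited 1 table of 27477 genes. Its mean level is a signal deposited by the authors, the mean of reads over size factor. The authors deposited log2 fold changes, shrunk towards 0, and their standard errors, and the Wald score and p-values were deposited by the authors too. Adjusted p under 0.05 was the test, with positive values higher in drug-tolerant cells.

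Reads per library were recovered as the whole numbers that reproduce each gene's deposited mean level, fold change, standard error and dispersion relation. The mean level of low genes gave 5 size factors. Reads in 2 libraries pulled the fold change up and reads in 3 pulled it down, which matches the labels' numbers of drug-tolerant and parental libraries. Genes with a mean level under 3200 were tried, and 13917 (91.4% of those with an adjusted p) were resolved into a single set of reads. Recomputed and deposited log2 fold changes of 200 low genes differed by a median of 4.4e-09. The width of the shrinkage was fitted on these same genes to make that difference small. On simulated libraries 575 of 592 genes were resolved, and the reads were right in all 575. These libraries were simulated with the same fit and size factors, so they test the search and not the match to the authors' processing. A set of reads that missed the dispersion relation was not used, a condition added after simulated and real data showed wrong sets among them.

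limma 3.58.1 in R 4.3.3 was fitted with a trend to log2 (normalised reads + 0.5). On simulated drug-tolerant and parental libraries with 200 of 13917 genes changed 4-fold, it called 63% of the changed genes and 0.0219% of the others. edgeR and DESeq2 were not run on the recovered reads, and values of DESeq2 are those of the authors' deposited table. Fold changes from limma are on the log2 (value + 0.5) scale and understate changes of low genes.

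Members and lists were chosen with earlier results of these data known. Named genes were the 8 members with the lowest and the 8 with the highest log2 fold change among those with an adjusted p, the 7 nuclear core subunits, NDUFA4, NDUFAB1, the member with no adjusted p, and the 3 lowest and 3 highest genes of each related list. Values of 1 member that this rule names are not reported here. NDUFS4 and NDUFS6 were named outside this rule after their values were seen. Transcripts and positions are from GENCODE 29.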

Additional observations from a re-analysis of the deposited data

How the results depend on the processing

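The count of members called stayed at 0 in each direction with the Wald score rescaled by its robust SD, with the length and GC trend removed, with fold changes recentred, with a mean level of at least 50 or no filter, without NDUFA4, at thresholds of 0.1 and 0.01, and with limma on the recovered reads. Leaving out 1 library at a time (limma) gave 0 to 32 members called lower and 0 to 2 called higher, and the median log2 fold change ran from -0.98 to -0.34; the calls came only without parental a. In fits with 1 drug-tolerant library, that library is assumed to vary like the parental ones. Without parental a, both drug-tolerant libraries were below parental b and c in 32 members, against 43.7% of all resolved genes, and above in 2, against 41.9%. With parental a the counts were 3 below, against 16.5% of genes, and 1 above, against 19.4%. Without parental a, limma also called 12 of 16 assembly factors, 3 of 10 regulators and all 3 supercomplex factors lower and 5 regulators higher. Without parental b or c it called 0 of each. The fit without parental a called 36.2% of all resolved genes lower and 35.5% higher. With 1 library left out the supercomplex median ran from -1.14 to -0.37. After removal of the trend on length and GC content the median was -0.11 in the nuclear subunits, -0.11 in the mitochondrially encoded subunits, -0.087 in the supercomplex factors and 0.0024 in the assembly factors, and 29 of 37 members were below 0, against 33. With that trend removed the sign turned in 6 members, NDUFA10 (0.055), NDUFB8 (0.33), NDUFA9 (-0.16), NDUFS3 (0.064), NDUFS7 (0.16) and NDUFA8 (0.031), and among the other named genes in ACAD9 (0.0029), MT-ND3 (0.034), MT-ND4L (0.24) and GABPB1 (0.11). It also turned when a library was left out in NDUFB8 (-1.07 to 0.27), NDUFA9 (-0.070 to 0.13), ACAD9 (-0.083 to 0.0058), NDUFAF1 (-0.13 to 0.24) and ESRRA (-0.30 to 0.053). The cause was not tested. DESeq2 or edgeR on recovered reads was not run. No paired analysis was possible because the recovered libraries carry no replicate number.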
